A study of Homo sapiens with 12 samples.

Results

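The proteasome genes were followed in human hepatoma cells after knockdown of ARD1, the older name of NAA10, which encodes the catalytic subunit of the NatA enzyme that acetylates protein N termini. The set held 50 of the 22730 genes listed in both deposited tables, of which 15555 were protein-coding. It was chosen by symbol: every protein-coding gene named PSMA, PSMB, PSMC, PSMD, PSME, PSMF or PSMG followed by a number, with POMP, ADRM1 and NFE2L1 added. By role, 7 genes encode the alpha rings of the core, 7 its standard beta rings, and 3 the immunoproteasome subunits. A further 10 encode the base, 8 the lid, 5 the activators and the inhibitor, 5 the chaperones of core assembly and 3 those of base assembly. NFE2L1 is a regulator, and PSMB11 is a thymus-type beta subunit. The study comprised 12 RNA-seq libraries in 4 groups of 3: cells labelled Hep-3B given siRNA against ARD1 (siARD1), Hep-3B given negative-control siRNA, Huh-7 given siARD1, and Huh-7 given negative-control siRNA. The labels give no time after transfection and no siRNA sequence, and they do not say whether the 3 replicates of a group were separate cultures, so every p-value measures the spread between libraries, which may be technical. The stated interest of the series is the role of ARD1 in glutathione synthesis and in escape from ferroptosis.

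The proteasome is the cell's main machine for destroying proteins tagged with ubiquitin. Its core is a barrel of alpha and beta rings, and PSMB5, PSMB6 and PSMB7 carry the cutting sites. Under interferon or in immune cells these are exchanged for PSMB8, PSMB9 and PSMB10, which changes the peptides offered to MHC class I. The regulatory particle on each end has a base, a ring of ATPases that unfolds the substrate, and a lid, where PSMD14 removes the ubiquitin chain. NFE2L1 is a membrane-bound transcription factor of the endoplasmic reticulum. In human and mouse cells it is known to be released and processed when proteasome activity falls short, and then to raise the transcription of proteasome genes through antioxidant response elements.

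Total counts per library ran from 17327615 to 25960237. The knockdown was visible in each library. NAA10 stood at 10.9, 15.6 and 14.4 CPM (counts scaled to library size) in Hep-3B siARD1 libraries, against 48.4, 58.7 and 58.7 in Hep-3B controls. In Huh-7 it stood at 13.2, 9.86 and 9.99 CPM after siARD1, against 165, 156 and 200 in controls. ALB and AFP, which define hepatoma lines of this kind, reached 10689 to 12771 and 3182 to 5281 CPM in the Huh-7 libraries. In the libraries labelled Hep-3B they reached only 0.564 to 6.20 and 0.260 to 1.97 CPM, so the data go against that label, and the name Hep-3B below stands for the libraries so labelled. Markers of the hepatocyte moved with siARD1. Their summed level was 30.6 to 43.4 CPM in Hep-3B siARD1 libraries, against 56.2 to 76.9 in Hep-3B controls, and 24369 to 28193 CPM in Huh-7 siARD1 libraries, against 32007 to 33129 in Huh-7 controls. Of the tested markers, 4 of 5 fell in Hep-3B and 4 of 7 in Huh-7, and 0 rose in either line. Among all tested genes, 16.8% rose and 15.3% fell in Hep-3B, and 21.2% rose and 18.9% fell in Huh-7. The part of this marker change in the values below was not tested. In bulk RNA, fewer cells of a type and less RNA per cell cannot be told apart.

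In Huh-7, proteasome mRNAs rose together after siARD1. Of the 49 members tested, 29 rose and 0 fell (edgeR quasi-likelihood test, adjusted p under 0.05 over all tested genes), a share of 59.2% higher. Among all 15919 genes tested in Huh-7, 21.2% rose and 18.9% fell, 40.1% in all. The rises were small. The median log2 fold change was 0.22 over the members and -0.01 over all genes, with a range of -0.18 to 1.03 among the members, and 45 of the 49 values were positive. The summed level of the members was 7959, 7993 and 8570 CPM in Huh-7 siARD1 libraries, against 6664, 7391 and 7207 CPM in Huh-7 controls, and the groups did not overlap. Member by member, the siARD1 libraries were all above the controls for 36 genes and all below for 1, against 26.1% and 23.9% of all tested genes. DESeq2 called 28 higher and 0 lower, limma-voom 29 and 0, and 1 member (PSMA1) was lower at an unadjusted p under 0.05 in edgeR. With upper-quartile scaling PSMA1 passed as lower, and the count was 26 higher and 1 lower.

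In Hep-3B, no common direction was seen. Of the 49 members tested, 10 rose and 6 fell (edgeR, adjusted p under 0.05), shares of 20.4% and 12.2%. Among all 15762 genes tested in Hep-3B, 16.8% rose and 15.3% fell, 32.2% in all, so the share of proteasome genes called was near the background. The median log2 fold change of the members was -0.01, as it was over all genes, and the values ran from -0.52 to 0.70. The summed level was 4111, 3935 and 4116 CPM in Hep-3B siARD1 libraries, against 3700, 3816 and 3997 CPM in Hep-3B controls, and the groups overlapped. The siARD1 libraries were all above the controls for 16 members and all below for 8, against 22.7% and 22.3% of all tested genes. The risers were PSMA7, PSMB7, PSMD7, PSMD8, PSMD12, PSMD14, PSME4, PSMG1, POMP and NFE2L1, and the fallers were PSMB1, PSMB3, PSMB8, PSMB9, PSMB10 and PSMD3. The balance depended on scaling, since upper-quartile factors gave 8 higher and 9 lower. It also depended on single libraries, with 4 to 12 risers and 2 to 7 fallers when each library was left out in turn. The number of risers fell to 5 without control replicate 2 or siARD1 replicate 1 and to 4 without siARD1 replicate 3. The number of fallers fell to 3 without control replicate 2 or siARD1 replicate 2 and to 2 without siARD1 replicate 1.

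**Figure D1:**
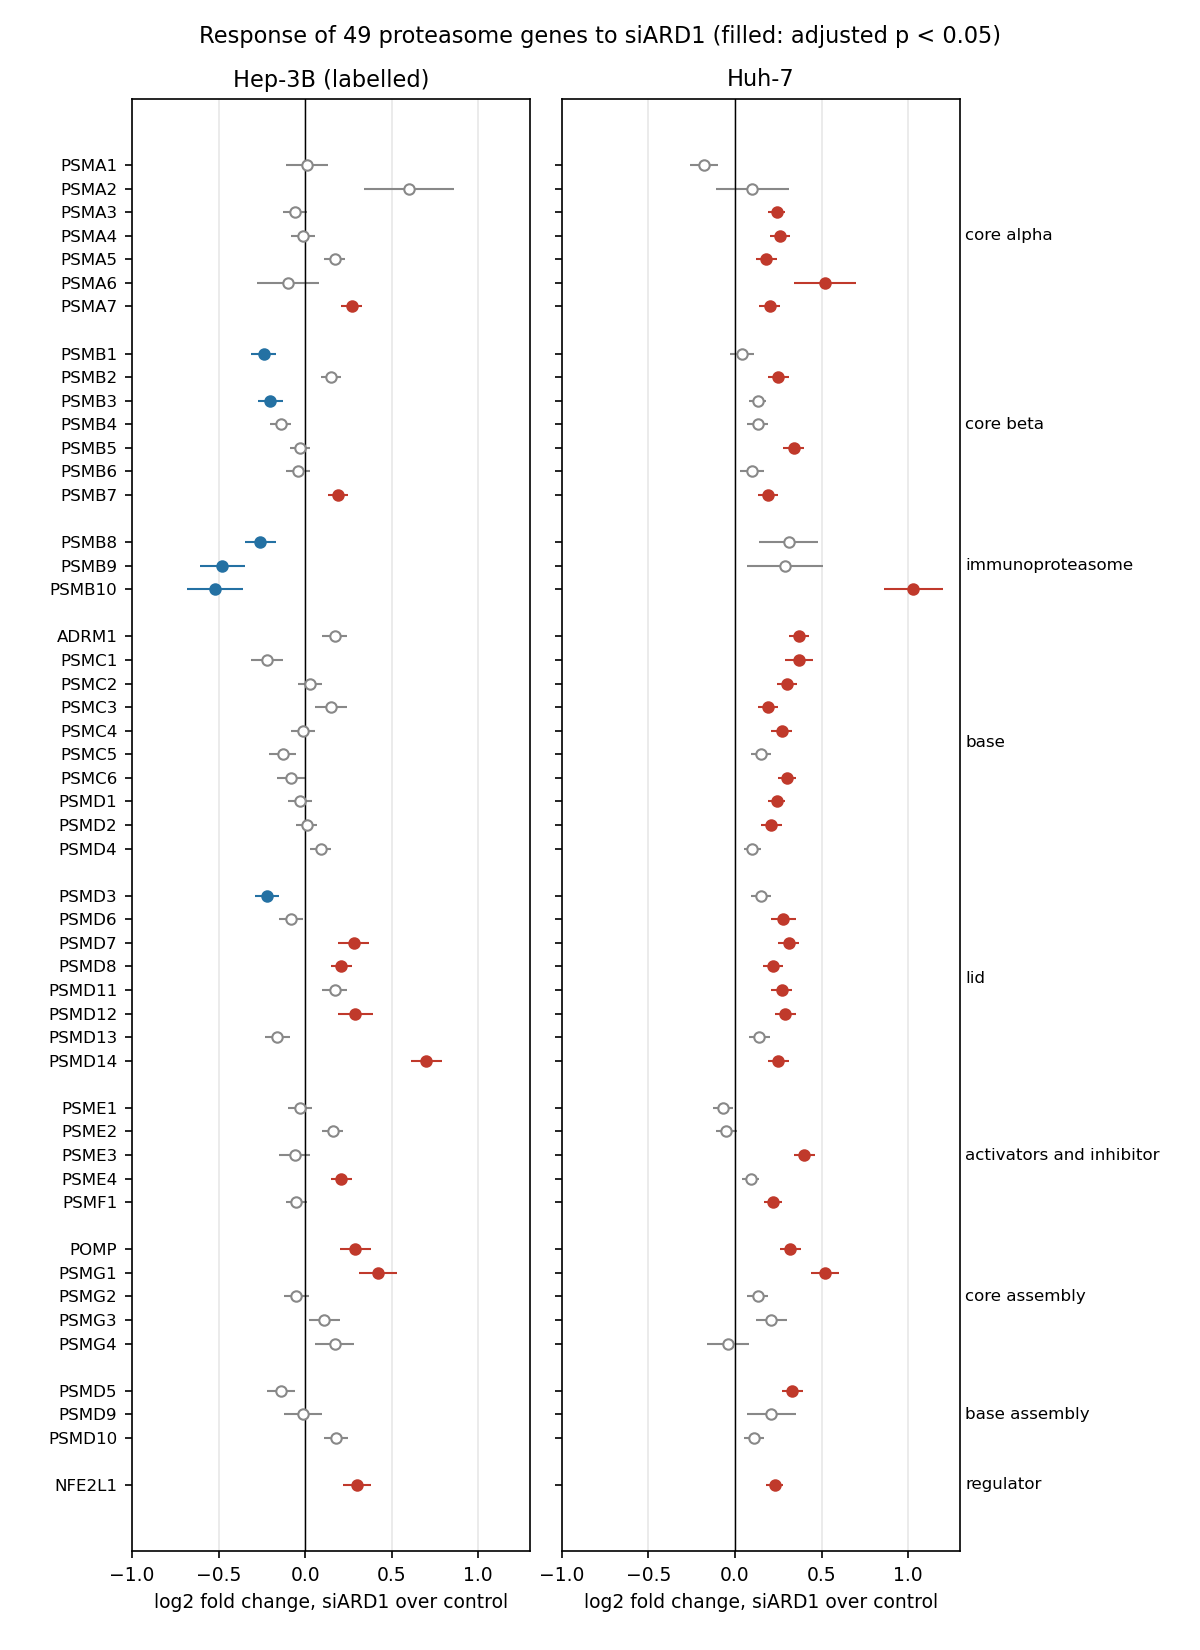
Log2 fold change, siARD1 over control, of the 49 tested proteasome genes by role in libraries labelled Hep-3B (left) and in Huh-7 (right). Points are edgeR estimates and bars are 1 SE. Filled points passed an adjusted p of 0.05, 10 to the right and 6 to the left of 0 in Hep-3B, and 29 to the right and 0 to the left in Huh-7.

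Promoter letters were read for the members, since NFE2L1 and interferon-induced factors are known to act through short elements. RefSeq promoters (GRCh38.p14, 250 bases before to 50 after the gene's start) were found for 44 of the 50. The letters TGACNNNGC, the core of the antioxidant response element, were searched on both strands and stood in 14 of the 44 members (31.8%), against 13.3% of all 35116 promoters and 14.7% of 12364 promoters of protein-coding genes in both tables. None of the 6 alpha-ring promoters held them. The CCAAT box was found in 21 of 44 (47.7%), against 34.6% of all promoters. The core letters of an interferon-stimulated response element (GAAA, any 2 bases, GAAA again, both strands) stood in 6 of 44 (13.6%), against 3.57% of all promoters. These windows are given for members that the results turn on, in the gene's direction, with the letters searched in capitals. They hold 20 bases on each side but stop at the gene's start, which cuts the PSMB10 window short. In PSMB9 the antioxidant response letters lie on the other strand, so the capitals show their reverse complement, and in PSMD14 a CCAAT on each strand overlaps with the other. The capitals printed overlap with no other motif searched.
ADRM1, chr20:62302739-62302787, plus strand: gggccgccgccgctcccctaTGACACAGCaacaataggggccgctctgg
PSMG1, chr21:39183606-39183654, minus strand: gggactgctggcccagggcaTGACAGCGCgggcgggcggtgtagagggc
PSMD5, chr9:120843028-120843076, minus strand: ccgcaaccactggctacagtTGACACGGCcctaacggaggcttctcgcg
PSMD12, chr17:67366714-67366762, minus strand: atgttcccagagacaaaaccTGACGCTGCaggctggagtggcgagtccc
PSMB3, chr17:38752617-38752665, plus strand: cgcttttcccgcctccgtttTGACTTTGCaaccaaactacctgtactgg
PSMB9, chr6:32854024-32854072, plus strand: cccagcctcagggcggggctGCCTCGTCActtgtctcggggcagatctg
PSMB10, chr16:67936851-67936891, minus strand: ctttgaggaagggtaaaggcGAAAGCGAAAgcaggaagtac
PSMD14, chr2:161308357-161308404, plus strand: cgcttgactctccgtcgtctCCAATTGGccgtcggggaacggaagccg

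Members with and without each set of letters were then counted by their call. Of all genes tested, 21.2% rose and 18.9% fell in Huh-7, and 16.8% rose and 15.3% fell in Hep-3B. In Huh-7, 6 of the 14 members with TGACNNNGC rose, against 21 of the 29 tested members whose promoter lacks it, and the medians were 0.22 and 0.25 on the log2 scale. In Hep-3B, 3 of the 14 rose and 3 fell, against 5 that rose and 2 that fell among the 29. With the interferon response letters, 2 of 6 members rose in Huh-7 (median 0.04), against 25 of 37 without them (median 0.25). In Hep-3B 0 of the 6 rose and 1 fell, against 8 and 4 of the 37. With CCAAT, 14 of 20 members rose in Huh-7, against 13 of 23 without it, and both medians were 0.24. In Hep-3B 5 of the 20 rose and 3 fell (median 0.15), against 3 and 2 of the 23 (median -0.03). These are counts with no test. A match describes letters in this window only.

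NFE2L1 (ENSG00000082641, chromosome 17, 48048329 to 48061487) was higher after siARD1 in both lines. In Hep-3B it stood at 410, 426 and 397 CPM in siARD1 libraries, against 282, 348 and 370 CPM in controls. In Huh-7 it stood at 285, 279 and 264 CPM in siARD1 libraries, against 242, 230 and 233 CPM in controls. The groups were apart in each line. The log2 fold changes were 0.30 (SE 0.08, edgeR adjusted p = 0.0137) in Hep-3B and 0.23 (SE 0.05, edgeR adjusted p = 0.00101) in Huh-7. The Hep-3B call was lost without siARD1 replicate 2 (edgeR adjusted p = 0.0616). An exact two-sided permutation test over 3 against 3 libraries cannot give a p below 0.1, so single genes are called here by the fit over all genes. mRNA does not show the cleavage and processing by which the NFE2L1 protein is known to be activated.

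Assembly chaperones of the core included 2 genes that rose in both lines, against 4.55% of all genes tested in both. PSMG1 (ENSG00000183527, chromosome 21, 39174769 to 39183851), which pairs with PSMG2 to guide the alpha ring, stood at 44.1, 35.7 and 44.4 CPM in Hep-3B siARD1 libraries, against 25.6, 33.5 and 33.9 CPM in Hep-3B controls. In Huh-7 it stood at 39.5, 35.2 and 38.3 CPM after siARD1, against 26.2, 28.1 and 24.3 CPM in controls. The lowest siARD1 library was above the highest control in each line. Its log2 fold change was 0.42 (SE 0.11, edgeR adjusted p = 0.0118) in Hep-3B and 0.52 (SE 0.08, edgeR adjusted p = 1.78e-05) in Huh-7. The Hep-3B call was lost without siARD1 replicate 1 (edgeR adjusted p = 0.0504). Its promoter carries the antioxidant response letters printed above. POMP (ENSG00000132963, chromosome 13, 28659104 to 28678925), the chaperone that brings beta subunits onto the alpha ring, had 31.3, 32.8 and 34.8 CPM in Hep-3B siARD1 libraries, against 26.9, 24.9 and 28.9 CPM in Hep-3B controls. In Huh-7 it had 124, 126 and 137 CPM after siARD1, against 94.9, 107 and 109 CPM in controls. These groups were apart as well. The log2 fold change of POMP was 0.29 (SE 0.09, edgeR adjusted p = 0.0159) in Hep-3B and 0.32 (SE 0.06, edgeR adjusted p = 0.000236) in Huh-7. In Hep-3B its call was lost without control replicate 2 (edgeR adjusted p = 0.0789) or without siARD1 replicate 3 (0.0737).

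PSMG2, PSMG3 and PSMG4, the remaining chaperones of the alpha ring, did not pass in either line. Their log2 fold changes were -0.05, 0.11 and 0.17 in Hep-3B and 0.13, 0.21 and -0.04 in Huh-7. PSMG3 was near the threshold in Huh-7 (edgeR adjusted p = 0.0511). It passed there as higher with no filter (0.0413), with a replicate block (0.0433), without control replicate 3 (0.0386) or without siARD1 replicate 3 (0.0417). PSMG2 (0.0703) passed as higher in Huh-7 without siARD1 replicate 2 (0.0499) or replicate 3 (0.0461). Of the 3 chaperones that build the base, PSMD5 rose in Huh-7 (97.4, 113 and 108 CPM in siARD1 libraries, against 78.8, 89.1 and 84.5 CPM in controls), a log2 change of 0.33 (SE 0.06, edgeR adjusted p = 0.00022). Its value in Hep-3B was -0.14 (edgeR adjusted p = 0.242). PSMD9 and PSMD10 did not pass in either line. PSMD10 was near the threshold in Hep-3B (0.18, SE 0.07, edgeR adjusted p = 0.0586), and its groups were apart in each line. It passed in Hep-3B with both lines in 1 fit (0.0366), with no filter (0.0449) or with a replicate block (0.0298). It also passed there without control replicate 3 (0.0322). In Huh-7 it stood at 0.11 (edgeR adjusted p = 0.183).

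**Figure D2:**
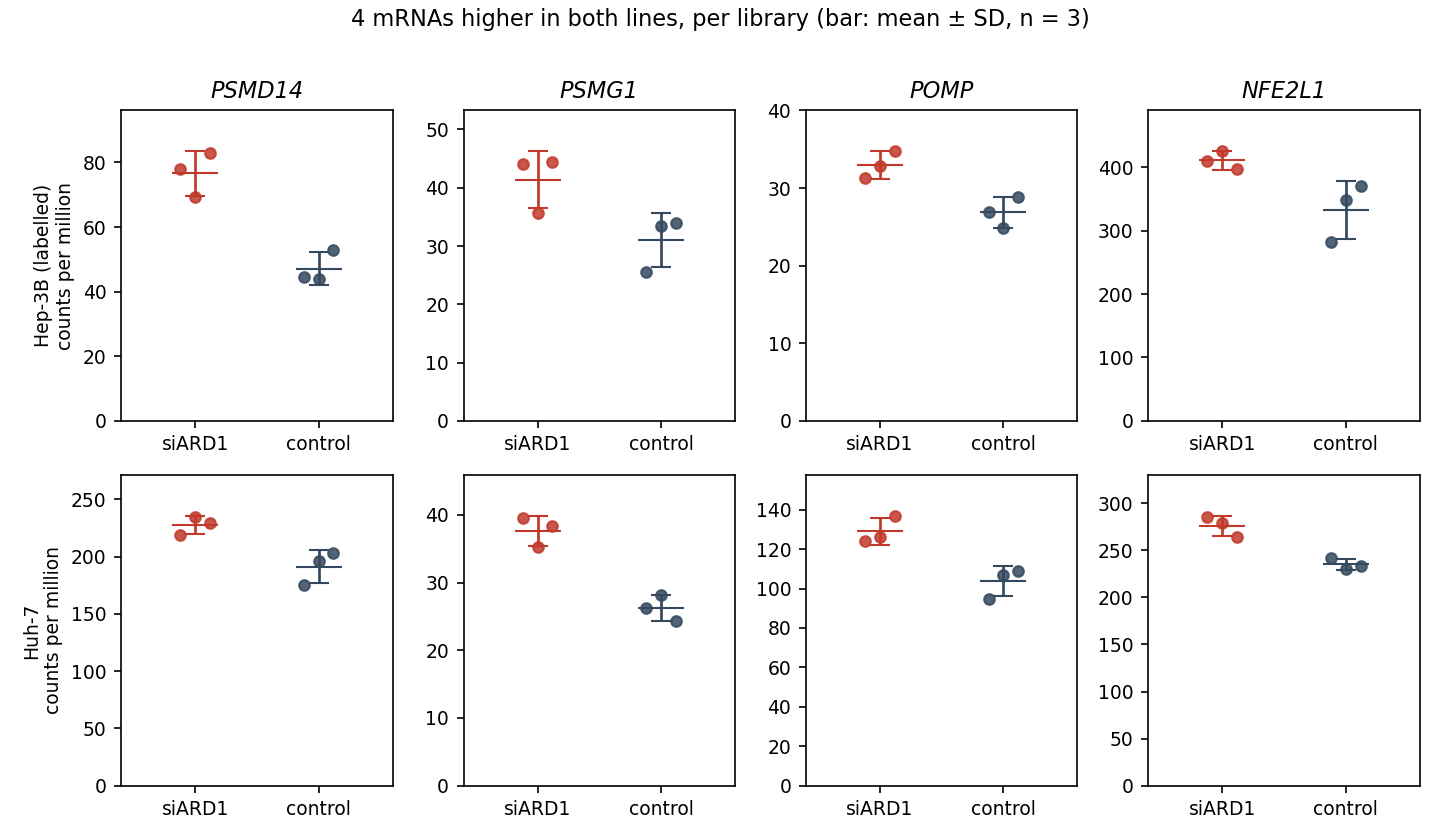
CPM of PSMD14, PSMG1, POMP and NFE2L1 in each library labelled Hep-3B (top) and Huh-7 (bottom), siARD1 left of control. Points are libraries, the long bar is the mean and the short bars are the SD (n = 3). In all 8 panels the lowest siARD1 library lies above the highest control.

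Among the alpha subunits, which form the gate of the core, 5 of 7 rose in Huh-7 and 0 fell (median log2 fold change 0.20). Of all genes tested in Huh-7, 21.2% rose and 18.9% fell. In Hep-3B 1 of 7 rose and 0 fell (median 0.01), against 16.8% and 15.3% of all genes. PSMA7 rose in both lines, with log2 fold changes of 0.27 (edgeR adjusted p = 0.00237) in Hep-3B and 0.20 (edgeR adjusted p = 0.00595) in Huh-7. PSMA3, PSMA4 and PSMA5 rose in Huh-7 by 0.24, 0.26 and 0.18 on the log2 scale. The count of alpha risers in Huh-7 was 3 without control replicate 1 or siARD1 replicate 1, since PSMA5 (edgeR adjusted p = 0.115 and 0.057) and PSMA6 were lost. The PSMA5 call was also lost with upper-quartile scaling (edgeR adjusted p = 0.12) and with both lines in 1 fit (0.0568). PSMA6 had the largest log2 rise of an alpha gene in Huh-7, at 4.65, 4.57 and 4.66 CPM in siARD1 libraries, against 2.59, 3.41 and 3.59 CPM in controls. That change was 0.52 (SE 0.18, edgeR adjusted p = 0.0243). The call did not hold with DESeq2 (adjusted p = 0.051), without control replicate 1 (edgeR adjusted p = 0.107) or without siARD1 replicate 1 (edgeR adjusted p = 0.0528). PSMA6 shares coding bases with another gene, as described further on, and has 4 named pseudogenes, so its level is uncertain. PSMA2 stood apart by its error, at 0.60 (SE 0.26, edgeR adjusted p = 0.091) in Hep-3B and 0.10 (SE 0.21, edgeR adjusted p = 0.725) in Huh-7. Its Hep-3B value rests on 116 counts over the siARD1 libraries and 70 over the controls.

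The standard catalytic subunits moved unequally. PSMB5, which carries the chymotrypsin-like site, stood at 208, 217 and 230 CPM in Huh-7 siARD1 libraries, against 162, 186 and 172 CPM in Huh-7 controls, with the groups apart. Its log2 fold change there was 0.34 (SE 0.06, edgeR adjusted p = 7.63e-05). In Hep-3B PSMB5 stood at 78.1, 78.9 and 82.3 CPM after siARD1, against 78.9, 81.1 and 83.9 CPM in controls, overlapping groups with a change of -0.03 on the log2 scale (SE 0.06, edgeR adjusted p = 0.786). PSMB7, with the trypsin-like site, was higher by 0.19 in each line (SE 0.06 each). It had 134, 129 and 129 CPM in Hep-3B siARD1 libraries, against 110, 113 and 121 CPM in Hep-3B controls. In Huh-7 it had 217, 205 and 234 CPM after siARD1, against 178, 194 and 201 CPM in controls. The edgeR adjusted p-values of PSMB7 were 0.029 in Hep-3B and 0.0113 in Huh-7, and upper-quartile scaling ended both calls (0.0615 and 0.0739). The Hep-3B call was also lost when control replicate 1, control replicate 2, siARD1 replicate 1 or siARD1 replicate 3 was left out, and the Huh-7 call without control replicate 1 (edgeR adjusted p = 0.0541). PSMB6, with the caspase-like site, passed in neither line, at -0.04 (SE 0.07, edgeR adjusted p = 0.659) in Hep-3B and 0.10 (SE 0.07, edgeR adjusted p = 0.26) in Huh-7. Its levels in Hep-3B were 56.1, 55.6 and 55.0 CPM after siARD1, against 54.9, 60.0 and 57.0 CPM in controls.

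Of the beta subunits without a cutting site, PSMB1 fell in Hep-3B. It stood at 66.9, 68.7 and 69.4 CPM in siARD1 libraries, against 85.2, 75.9 and 81.7 CPM in controls, with the groups apart. The log2 fold change of PSMB1 was -0.24 (SE 0.07, edgeR adjusted p = 0.0101), and the call was lost without siARD1 replicate 1 (edgeR adjusted p = 0.0552). PSMB3 fell too, by 0.20 on the log2 scale (edgeR adjusted p = 0.0349). That call was lost with DESeq2 (adjusted p = 0.0511), with no filter (edgeR adjusted p = 0.0548), and without control replicate 2 (0.0906), control replicate 3 (0.0787), siARD1 replicate 1 (0.108) or siARD1 replicate 2 (0.123). In Huh-7 neither passed, with PSMB1 at 0.04 (edgeR adjusted p = 0.673) and PSMB3 at 0.13 (edgeR adjusted p = 0.0693). PSMB2 rose in Huh-7 (0.25, edgeR adjusted p = 0.00145). In all, 3 of the 7 standard beta genes rose in Huh-7 and 0 fell, against 21.2% and 18.9% of all genes. In Hep-3B 1 rose and 2 fell, against 16.8% and 15.3%. PSMB11 held 2 counts over the Hep-3B siARD1 libraries, against 0 over the Hep-3B controls, and 4 counts in each Huh-7 group, and it was not tested.

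The immunoproteasome subunits fell in Hep-3B, all 3 of them, while PSMB10 rose in Huh-7. Of all genes tested, 15.3% fell in Hep-3B and 21.2% rose in Huh-7. PSMB10 (ENSG00000205220, chromosome 16, 67934502 to 67937087), which replaces PSMB7, stood at 3.74, 3.73 and 4.78 CPM in Hep-3B siARD1 libraries, against 6.04, 5.80 and 5.87 CPM in Hep-3B controls. In Huh-7 it stood at 5.37, 7.27 and 6.80 CPM in siARD1 libraries, against 3.38, 2.86 and 3.29 CPM in controls. The groups were apart in each line, in opposite directions. The log2 fold change was -0.52 (SE 0.16, edgeR adjusted p = 0.0208) in Hep-3B and 1.03 (SE 0.17, edgeR adjusted p = 5.27e-05) in Huh-7, a 2.04-fold rise and the largest of any member there. These levels rest on few reads, 275 counts over the siARD1 libraries and 360 over the controls in Hep-3B, and 374 and 198 counts in Huh-7 in the same order. PSMB10 also shares 60.0% of its coding bases with AC040162.1, a gene on the same strand listed at 1.14 CPM in Hep-3B controls and 1.10 in Huh-7 controls. Its promoter carries the interferon response letters printed above. The Hep-3B call was lost without siARD1 replicate 1 (edgeR adjusted p = 0.0855) or replicate 2 (0.0719), and the Huh-7 call held in every alternative run.

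PSMB9 (ENSG00000240065, chromosome 6, 32844136 to 32859585), which replaces PSMB6, stood at 9.66, 11.3 and 8.32 CPM in Hep-3B siARD1 libraries, against 14.0, 14.1 and 12.7 CPM in Hep-3B controls. Its groups were apart, with a log2 change of -0.48 (SE 0.13, edgeR adjusted p = 0.00902), and the call was lost without siARD1 replicate 3 (edgeR adjusted p = 0.057). PSMB8 (ENSG00000204264, chromosome 6, 32840717 to 32844703), which replaces PSMB5, stood at 24.4, 24.6 and 27.6 CPM in Hep-3B siARD1 libraries, against 29.9, 31.0 and 31.1 CPM in Hep-3B controls. These groups were apart too, with a log2 change of -0.26 (SE 0.09, edgeR adjusted p = 0.0272). The PSMB8 call rested on single libraries, since it was lost without control replicate 2 (edgeR adjusted p = 0.0746), control replicate 3 (0.073), siARD1 replicate 1 (0.117) or siARD1 replicate 2 (0.0811). The ends of PSMB8 and PSMB9 overlap on opposite strands, and the strand setting of the counting is not given in the sources used here.

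In Huh-7 the other two immunoproteasome genes were low and variable. PSMB9 had 2.84, 3.53 and 3.92 CPM after siARD1, against 2.09, 3.64 and 2.63 CPM in controls, a log2 change of 0.29 (SE 0.22, edgeR adjusted p = 0.317). PSMB8 had 5.63, 6.12 and 5.34 CPM after siARD1, against 4.51, 5.59 and 3.68 CPM in controls, a log2 change of 0.31 (SE 0.17, edgeR adjusted p = 0.152). Both pairs of groups overlapped, and at this depth no change was detectable. Leukocytes are known for high immunoproteasome levels. PTPRC, which defines them, stood at 0, 0.174 and 0 CPM in Hep-3B siARD1 libraries, against 0.130, 0.232 and 0 CPM in Hep-3B controls. In Huh-7 it stood at 0.310, 0.260 and 0.262 CPM in siARD1 libraries, against 0.338, 0.455 and 0.394 CPM in controls, too few reads to be tested. The leukocyte list, with 3 of 5 markers listed in Hep-3B and 4 of 5 in Huh-7, summed to 1.66 to 2.34 CPM in Hep-3B siARD1 libraries, against 2.18 to 3.48 CPM in Hep-3B controls. In Huh-7 it summed to 96.4 to 115 CPM after siARD1, against 94.1 to 99.1 CPM in controls, most of it LYZ. These sums overlapped in each line, and none of the tested markers passed.

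**Figure D3:**
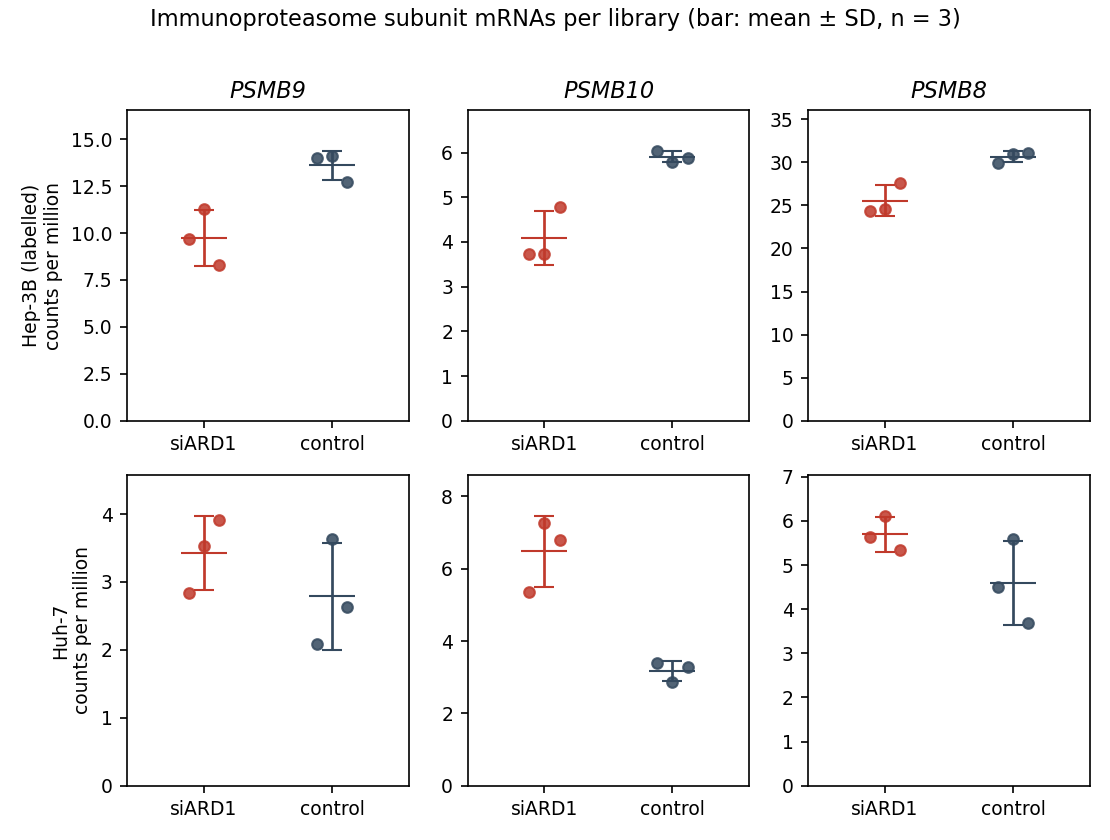
CPM of PSMB9, PSMB10 and PSMB8 in each library labelled Hep-3B (top) and Huh-7 (bottom), siARD1 left of control. Points are libraries, the long bar is the mean and the short bars are the SD (n = 3). All 3 genes are lower after siARD1 in Hep-3B, while in Huh-7 the groups are apart for PSMB10 only, with siARD1 higher.

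Each immunoproteasome subunit was set against the standard subunit whose place it takes, as a ratio of counts per kilobase of transcript within a library. PSMB8 was 28.1, 28.0 and 30.1% of PSMB5 in Hep-3B siARD1 libraries, against 34.0, 34.3 and 33.3% in Hep-3B controls. PSMB9 was 18.9, 22.3 and 16.6% of PSMB6 in Hep-3B siARD1 libraries, against 27.9, 25.8 and 24.4% in Hep-3B controls. PSMB10 was 2.25, 2.34 and 2.99% of PSMB7 in Hep-3B siARD1 libraries, against 4.43, 4.12 and 3.91% in Hep-3B controls. All 3 ratios were lower after siARD1 with no overlap in that line. In Huh-7 the PSMB8 ratio was 2.34 ± 0.233% after siARD1 and 2.38 ± 0.404% in controls, and the PSMB9 ratio 2.36 ± 0.231% and 2.04 ± 0.408% in the same order (SD, n = 3 each), with the groups overlapping. The PSMB10 ratio in Huh-7 was 1.99, 2.85 and 2.34% in siARD1 libraries, against 1.53, 1.19 and 1.31% in controls, again with no overlap. These ratios are a description of mRNA, since they use the median length of coding transcripts and the proteins were not measured.

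**Figure D4:**
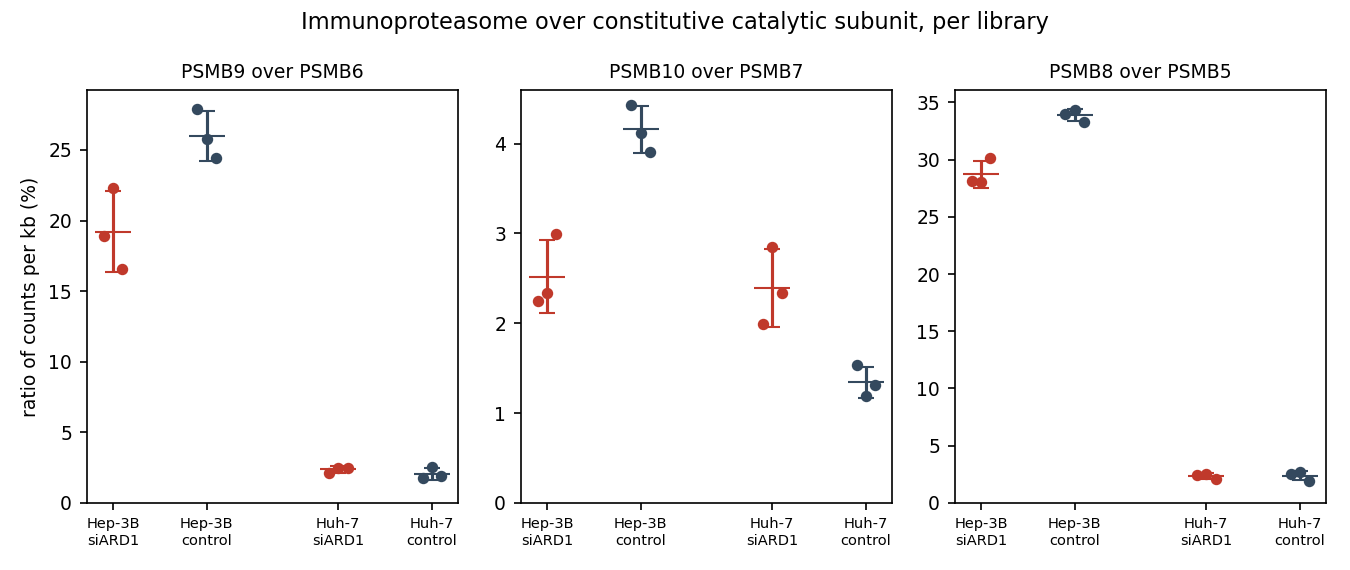
Ratio of each immunoproteasome gene to the standard catalytic gene it replaces, in percent of counts per kilobase, for the 12 libraries. Points are libraries, the long bar is the mean and the short bars are the SD (n = 3). Hep-3B siARD1 libraries lie below Hep-3B controls in all 3 panels, and Huh-7 siARD1 libraries lie above Huh-7 controls for PSMB10 over PSMB7.

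In the base, 8 of 10 genes rose and 0 fell in Huh-7 (median log2 fold change 0.25), against 21.2% and 18.9% of all genes. In Hep-3B 0 of 10 passed in edgeR (median 0.00), against 32.2% of all genes called in either direction. At an unadjusted p under 0.05, 1 base gene was higher and 1 lower in Hep-3B, DESeq2 and limma-voom called 0, and upper-quartile scaling called 1 lower, PSMC1. ADRM1 (ENSG00000130706, chromosome 20, 62302093 to 62308862), a ubiquitin receptor of the base, stood at 139, 138 and 157 CPM in Huh-7 siARD1 libraries, against 113, 114 and 110 CPM in Huh-7 controls. The groups were apart, with a log2 change of 0.37 (SE 0.06, edgeR adjusted p = 2.57e-05). In Hep-3B ADRM1 stood at 63.8, 61.7 and 64.5 CPM after siARD1, against 54.7, 59.2 and 54.5 CPM in controls. The groups were apart there too, but the log2 fold change of 0.17 (SE 0.07) missed the threshold (edgeR adjusted p = 0.0592), and it passed when both lines were fitted together (0.0401).

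PSMC1, one of the ATPases, stood at 68.6, 63.2 and 76.6 CPM in Huh-7 siARD1 libraries, against 46.5, 56.7 and 57.3 CPM in Huh-7 controls. Its log2 fold change was 0.37 (SE 0.08, edgeR adjusted p = 0.00151) in Huh-7 and -0.22 (SE 0.09, edgeR adjusted p = 0.0702) in Hep-3B, where it passed as lower with upper-quartile scaling (0.0369), with a replicate block (0.0344) or without control replicate 1 (0.0217). PSMC1 has 13 named pseudogenes and 47.7% of its coding bases lie opposite another gene, so its counts are uncertain. The ATPase genes PSMC2, PSMC3, PSMC4 and PSMC6 rose in Huh-7 by 0.19 to 0.30 on the log2 scale (PSMC3 not without control replicate 1, edgeR adjusted p = 0.123, or siARD1 replicate 3, 0.0969, nor with upper-quartile scaling, 0.124, or both lines in 1 fit, 0.121), and the scaffold genes PSMD1 and PSMD2 by 0.24 and 0.21. PSMC5 (0.15) and the ubiquitin receptor gene PSMD4 (0.10) did not pass there.

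The lid held the member with the largest log2 change in Hep-3B. PSMD14 (ENSG00000115233, chromosome 2, 161308038 to 161411717), the deubiquitinase of the lid, stood at 77.9, 69.2 and 82.9 CPM in Hep-3B siARD1 libraries, against 44.5, 43.8 and 53.0 CPM in Hep-3B controls. In Huh-7 it stood at 219, 235 and 229 CPM after siARD1, against 175, 196 and 203 CPM in controls. The groups were apart in each line. The rise was 1.63-fold in Hep-3B, a log2 change of 0.70 (SE 0.09, edgeR adjusted p = 2.10e-05), and 0.25 on the log2 scale in Huh-7 (SE 0.06, edgeR adjusted p = 0.00129). Neither call was lost in any alternative run. Its promoter holds the overlapping CCAAT letters printed above and no TGACNNNGC. In the lid as a whole 4 of 8 genes rose and 1 fell in Hep-3B (median 0.19), against 16.8% and 15.3% of all genes. In Huh-7 6 rose and 0 fell (median 0.26), against 21.2% and 18.9%. Single libraries decided the Hep-3B count, which was 1 riser and 0 fallers without control replicate 2 or siARD1 replicate 3, and 2 risers without siARD1 replicate 1. PSMD7, PSMD8 and PSMD12 rose in both lines, by 0.28, 0.21 and 0.29 in Hep-3B and by 0.31, 0.22 and 0.29 in Huh-7 on the log2 scale. In Hep-3B their calls were all lost without control replicate 2 (edgeR adjusted p = 0.0662, 0.0608 and 0.185) or siARD1 replicate 3 (0.115, 0.0583 and 0.14), which left PSMD14 as the riser of the lid. PSMD7 and PSMD8 also lost theirs without siARD1 replicate 1 (0.0787 and 0.121), PSMD7 without control replicate 1 (0.0797), and PSMD12 without siARD1 replicate 2 (0.0695) or with upper-quartile scaling (0.0587). PSMD3, a structural subunit, fell by 0.22 in Hep-3B (edgeR adjusted p = 0.0188) and stood at 0.15 in Huh-7 (edgeR adjusted p = 0.0524). Its Hep-3B call was lost without control replicate 2 (edgeR adjusted p = 0.0579) or siARD1 replicate 3 (0.094).

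Among the activators, PSME3, which caps nuclear proteasomes, stood at 223, 223 and 242 CPM in Huh-7 siARD1 libraries, against 160, 182 and 178 CPM in Huh-7 controls. Its log2 fold change was 0.40 (SE 0.06, edgeR adjusted p = 9.12e-06) in Huh-7 and -0.06 (SE 0.09, edgeR adjusted p = 0.642) in Hep-3B. PSMF1, which encodes an inhibitor of the core, rose in Huh-7 by 0.22 (edgeR adjusted p = 0.0025). PSME4, a large cap known from testis and DNA repair, rose in Hep-3B by 0.21 (edgeR adjusted p = 0.0209) and stood at 0.09 in Huh-7 (edgeR adjusted p = 0.15). The Hep-3B call was lost without control replicate 1 (edgeR adjusted p = 0.0565), siARD1 replicate 1 (0.0772) or siARD1 replicate 3 (0.0606). PSME1 and PSME2, the interferon-induced cap subunits, passed in neither line. Their log2 fold changes were -0.03 and 0.16 in Hep-3B and -0.07 and -0.05 in Huh-7.

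Most rises of Hep-3B were also called in Huh-7. Of the 10 members higher in Hep-3B, 9 were also higher in Huh-7 (90.0% of the Hep-3B list and 31.0% of the Huh-7 list), and PSME4 was the exception. With 59.2% of all tested members higher in Huh-7, a large part of any list of members would be shared. The Hep-3B list ran from 4 to 12 members when each library was left out in turn. Over all 13800 genes tested in both lines, 628 (4.55%) were higher in both, which is 25.3% of the Hep-3B risers and 19.5% of the Huh-7 risers. The lines share no library. PSMB10 was the 1 member called lower in Hep-3B and higher in Huh-7, which is 16.7% of the 6 fallers in Hep-3B. Over all genes 563 were called so, 25.3% of the Hep-3B fallers, so the share among the members was not above that of all genes.

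The response itself was then compared between lines by the interaction in a fit of all 12 libraries (Hep-3B change minus Huh-7 change). It was lower in Hep-3B for 20 of 49 members and higher for 1, shares of 40.8% and 2.04%, against 15.2% and 16.2% of the 17122 genes tested, 31.4% in all. The median difference over the members was -0.17 on the log2 scale. PSMB10 differed most, by -1.53 (SE 0.24, edgeR adjusted p = 1.56e-05), and PSMC1 by -0.57 (SE 0.13, edgeR adjusted p = 0.00101). PSMD14 was the 1 gene with a larger rise in Hep-3B, by 0.47 (SE 0.11, edgeR adjusted p = 0.00138). By role, the difference was lower in Hep-3B for 3 of 3 immunoproteasome genes, 4 of 7 standard beta, 5 of 10 base, 3 of 8 lid and 2 of 7 alpha genes. It passed for 0 of the 5 core assembly genes, and none of those passed at an unadjusted p under 0.05 either. The differences of PSMG1, POMP and NFE2L1 were -0.09 (SE 0.14), -0.01 (SE 0.11) and 0.08 (SE 0.10). The count of 20 ran from 11 to 23 when each library was left out, and it was 12 without Hep-3B control replicate 3, 11 without Huh-7 control replicate 1 and 12 without Huh-7 siARD1 replicate 3. The PSMB9 difference (-0.75, edgeR adjusted p = 0.0215) was lost in 4 of the 12 fits that left out a library, and the PSMB8 difference (-0.55, edgeR adjusted p = 0.0158) in 1, without Huh-7 control replicate 3 (0.0932).

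The lines differed before knockdown too. In controls, 13 members were higher and 33 lower in Hep-3B than in Huh-7 (edgeR, adjusted p under 0.05), against 40.0% and 40.7% of all genes tested (80.7% in all), and the median difference was -0.84 on the log2 scale. All 10 base genes and all 7 standard beta genes were lower in Hep-3B controls, while PSMB8, PSMB9 and PSMB10 were 7.47-fold, 5.41-fold and 2.09-fold higher. PSMD14 was 3.62-fold and POMP 3.44-fold lower in Hep-3B controls. The line, its label and its preparation cannot be told apart in this comparison.

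Levels among the members were compared per kilobase of transcript. In Hep-3B controls the 44 tested members that share at most 0.125% of their coding bases with a gene on the same strand stood between 11.7 (PSMD12) and 139 (PSMA4) CPM per kilobase, with a median of 43.9. The 5 members with 60.0 to 100% of coding bases inside such a gene stood lower than every one of them, at 6.86 (PSMA1), 1.12 (PSMA2), 5.33 (PSMA6), 6.10 (PSMD9) and 5.16 (PSMB10). In Huh-7 controls these 5 stood at 2.38 to 18.0 CPM per kilobase, against a range of 3.36 to 365 and a median of 78.8 in the other 44. PSMB9 (3.36) and PSMB8 (3.88) were as low there. How reads within both genes were counted is not given in the sources used here, so the levels of these 5 genes are uncertain, and the part of shared sequence in their values was not tested.

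**Figure D5:**
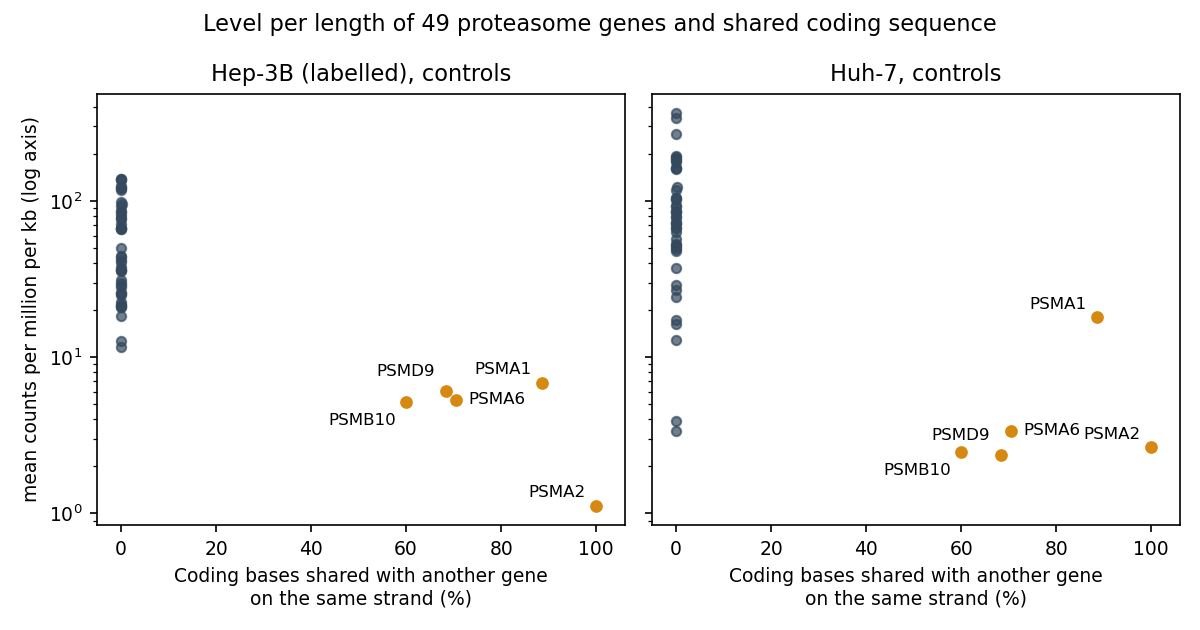
Mean level of the 49 tested members in control libraries (CPM per kilobase, log axis, n = 3) against the percentage of coding bases shared with another gene on the same strand, for libraries labelled Hep-3B (left) and Huh-7 (right). Orange points are the 5 members sharing 60.0% or more, which lie below every other member in Hep-3B controls, between 1.12 and 6.86.

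Genes around the proteasome were read from lists of partners, NFE2L1 relatives, ubiquitin and its activating enzymes, and class I antigen processing genes. Of 20 partners, 12 rose and 0 fell in Huh-7 (median log2 fold change 0.17), against 21.2% and 18.9% of all genes. In Hep-3B 7 rose and 3 fell (median 0.04), against 16.8% and 15.3%. In Huh-7 the risers were led by ZFAND2A (0.88, SE 0.07, edgeR adjusted p = 7.07e-09), whose product associates with proteasomes under stress, ECPAS (0.62, SE 0.05, edgeR adjusted p = 3.83e-09), an adaptor, and ZFAND5 (0.45, SE 0.05, edgeR adjusted p = 7.03e-07), an activator. Their values in Hep-3B were -0.27, -0.11 and -0.05, and none of these passed. ZFAND2A was near the threshold there (edgeR adjusted p = 0.0597). It passed as lower with both lines in 1 fit (0.0309), a replicate block (0.0418), upper-quartile scaling (0.0349) or without control replicate 1 (0.0261). ECPAS passed as lower in Hep-3B without control replicate 1 (0.026). In Hep-3B TXNL1 (0.64, SE 0.10) and the ubiquitin shuttle gene UBQLN1 (0.45, SE 0.06) rose, and PAAF1, which binds the base (-0.68, SE 0.10), fell, with edgeR adjusted p-values of 0.000233, 4.24e-05 and 0.000124. TXNL1 rose in Huh-7 as well (0.30, edgeR adjusted p = 0.000371), and UBQLN1 (0.04) and PAAF1 (0.06) did not pass there. Of 6 genes for ubiquitin and its activating enzymes, 1 rose and 0 fell in Huh-7 (median 0.10), against 21.2% and 18.9% of all genes. In Hep-3B 2 of these rose and 1 fell (median 0.09), against 16.8% and 15.3%.

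Among 10 genes that process NFE2L1 or are its relatives, 5 rose and 0 fell in Huh-7, against 21.2% and 18.9% of all genes. In Hep-3B 2 rose and 2 fell, shares near the 16.8% and 15.3% of all genes. NFE2L2, the related factor of the oxidative stress response, rose in Huh-7 by 0.66 (SE 0.06, edgeR adjusted p = 9.01e-09) and stood at 0.03 in Hep-3B (edgeR adjusted p = 0.734). KEAP1, the adaptor that holds NFE2L2 back, rose in Huh-7 (0.57, SE 0.06, edgeR adjusted p = 1.09e-07) and fell in Hep-3B (-0.51, SE 0.15, edgeR adjusted p = 0.0167), a call lost without control replicate 3 (0.0878) or siARD1 replicate 1 (0.064). NGLY1, the deglycosylase that NFE2L1 needs for its activity, fell in Hep-3B (-0.37, SE 0.08, edgeR adjusted p = 0.00193) and rose in Huh-7 (0.24, SE 0.06, edgeR adjusted p = 0.00214). MAFF, a small partner of both factors, rose in each line, by 0.33 in Hep-3B and 0.52 in Huh-7. Its Hep-3B call was lost with upper-quartile scaling (edgeR adjusted p = 0.0504) and in 4 of the 6 fits that left out a library (0.0545 to 0.112).

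Of 11 genes of class I antigen processing, 7 rose and 1 fell in Huh-7 (median 0.26), against 21.2% and 18.9% of all genes. In Hep-3B 4 rose and 2 fell (median 0.23), against 16.8% and 15.3%. IRF1, a transcription factor of the interferon response, rose by 0.23 in Hep-3B (SE 0.07, edgeR adjusted p = 0.0262) and by 0.46 in Huh-7 (SE 0.08, edgeR adjusted p = 8.12e-05). Its Hep-3B call was lost with upper-quartile scaling (0.0555) and in 4 of the 6 fits that left out a library (0.0526 to 0.0762). NLRC5, the class I transactivator, rose by 0.70 in Hep-3B (SE 0.12, edgeR adjusted p = 0.000341) and by 0.73 in Huh-7 (SE 0.15, edgeR adjusted p = 0.000643). CALR (0.36, SE 0.05, edgeR adjusted p = 8.34e-05) and PDIA3 (0.27, SE 0.05, edgeR adjusted p = 0.00144) were the other risers in Hep-3B. PDIA3 was the faller in Huh-7 (-0.15, edgeR adjusted p = 0.0273). That call was lost without control replicate 2 (0.0872), control replicate 3 (0.162), siARD1 replicate 1 (0.0857) or siARD1 replicate 2 (0.0942). B2M, the light chain of MHC class I, fell in Hep-3B (-0.21, SE 0.05, edgeR adjusted p = 0.00529) and rose in Huh-7 (0.26, SE 0.05, edgeR adjusted p = 0.000496). TAPBP, which encodes the peptide-loading chaperone tapasin and is named after its values were seen, was the other faller in Hep-3B (-0.22, SE 0.07, edgeR adjusted p = 0.0211), a call lost without control replicate 2 (0.0862) or siARD1 replicate 2 (0.0962), and it stood at 0.16 in Huh-7 (edgeR adjusted p = 0.0663).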

How the data were processed

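Per the labels' protocols, Trizol was used for total RNA, rRNA was removed and a directional library kit followed. Reads were handled with cutadapt 4.6 and STAR 2.7.11b on GRCh38, per the submitters' processing notes. For counting, the tool, annotation and use of strand were not given in the sources used here. The authors deposited raw gene counts, 1 table per line (25720 and 25714 genes), and 0 columns were left unmapped.

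Each line was fitted alone with edgeR 4.0.16 in R 4.3.3 (filterByExpr with minimum count 10 and total 15, TMM factors, robust quasi-likelihood F-test, Benjamini-Hochberg adjustment over all tested genes, threshold 0.05). Line differences and control levels came from 1 fit of 4 groups over 12 libraries. SEs were taken as the size of the log2 change divided by the root of F. CPM are TMM-scaled within a line, except that levels and ratios per kilobase use TMM scaling over all 12 libraries. Lengths, positions and overlaps came from GENCODE 29. The fits were tested on simulated data. No libraries were duplicates within sampling noise. The fits were repeated with other scaling (RLE, upper quartile), other tools (DESeq2 1.42.0, limma-voom in limma 3.58.1), no filter or 1 of 1 CPM in 3 libraries, a joint fit of both lines, a replicate block, and each library left out.

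The members and lists were chosen with earlier results of these data known. Genes named with full values were NFE2L1, POMP, ADRM1, PSMB5 to PSMB10, the 4 largest rises and falls per line, up to 4 line differences each way by p, and up to 3 genes per list by p. Others are given by their log2 fold change. Some genes that this rule names are not reported here.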

Additional observations from a re-analysis of the deposited data

Results flagged for a closer look

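The response to siARD1 differed between the lines at an edgeR adjusted p under 0.05 for 21 of the 49 members tested. Of all 17122 genes in that fit, 31.4% differed so. Differences are given as Hep-3B minus Huh-7 on the log2 scale. The difference was 0.47 for PSMD14 and below 0 for the other 20. Among immunoproteasome genes it was -1.53 for PSMB10, -0.75 for PSMB9 and -0.55 for PSMB8. In the base it was -0.57 for PSMC1, -0.36 for PSMC6, -0.26 for PSMC4 and PSMD1, and -0.25 for PSMC2. In the lid it was -0.35 for PSMD3, -0.34 for PSMD6 and -0.28 for PSMD13. In the core it was -0.35 for PSMB5, -0.31 for PSMB3, -0.29 for PSMA3, -0.27 for PSMB1, and -0.26 for PSMB4 and PSMA4. Among the remaining genes it was -0.45 for the base chaperone gene PSMD5, -0.44 for the activator gene PSME3 and -0.25 for the inhibitor gene PSMF1. The PSMB1 difference (edgeR adjusted p = 0.0371) rested on single libraries. It was lost in 8 of the 12 fits that left out a library (0.0509 to 0.15).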

How the results depend on the processing

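Leaving out each library gave 4 to 12 higher and 2 to 7 lower members in Hep-3B, 25 to 34 higher and 0 lower in Huh-7, and 1 to 2 higher and 11 to 23 lower line differences. The other settings gave 8 to 13 higher and 5 to 9 lower in Hep-3B, 26 to 32 higher in Huh-7, and 19 to 22 lower line differences. Upper-quartile factors gave 1 lower member in Huh-7 and 2 higher line differences, and the filter of 1 CPM also gave 2. The replicate numbers did not pair the libraries (correlations of same-numbered deviations from -0.0646 to 0.0652), although in Hep-3B each library correlated best with its own number. With a replicate block, 13 members were higher and 7 lower in Hep-3B, 31 and 0 in Huh-7, and 1 and 21 for the line difference. Among named values not past the threshold, the sign turned for PSMB1 in Huh-7 (-0.03 with upper-quartile factors) and for the line differences of POMP (0.006 with upper-quartile factors and 0.0025 with the 1 CPM filter) and PSMB7 (-0.01 with RLE factors and DESeq2, -0.005 with no filter). Leaving out a library also turned the sign of values near 0: PSMA6 (-0.18 to 0.03) and PSME3 (-0.15 to 0.02) in Hep-3B, PSMB1 in Huh-7 (-0.03 to 0.11), and the line differences of NFE2L1 (-0.05 to 0.17), POMP (-0.08 to 0.06), PSMB7 (-0.05 to 0.07) and PSMG1 (-0.24 to 0.0091). The cause of these shifts was not tested. Depth limits PSMB8, PSMB9, PSMB10, PSMA2 and PSMA6 in Huh-7, where they held 177 to 287 counts over the controls, the fewest of the tested members in that line. In Hep-3B it also limits PSMA2, PSMA6 and PSMB10, with 70, 269 and 360 counts over the controls.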
